A study of Apis mellifera with 6 samples.

Results

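Long genes, here entries of the honeybee (Apis mellifera) gene table whose span from gene start to gene end was at least 100000 bp, made up 240 of the 11169 entries (2.15%). The span was the only criterion, no expression value entered it, and since it takes in introns it says nothing of the length of the transcript. The 240 spans ran from 100131 to 904195 bp with a median of 155953.5 bp, against a median of 3548 bp over all entries. The long genes lay on 141 of 846 scaffolds, with at most 7 on the same scaffold. A gene symbol was given for 75 of them, and the other 165 carried only a LOC number, for which no role is stated. The shortest was Drl2 with 100131 bp, followed by Su(var)3-3 with 100187 bp and LOC726709 with 100490 bp. The longest entries left out were LOC100576283 with 99791 bp, LOC100577827 with 99688 bp and LOC100576509 with 99584 bp, none of which reached 1 RPKM in any library.

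RNA-seq was available for 6 libraries of dissected ovaries, 2 pools in each of 3 groups. Queen-right worker ovaries came from workers of hives with a laying queen and had an ovary score of 0. Queen-less worker ovaries came from workers of nucleus boxes without a queen, dissected 2 to 4 weeks after these were set up, once eggs laid by workers had been found, and had an ovary score of 3. Queen ovaries came from egg-laying queens about 12 months old that headed colonies. All bees were females of stock from Betta Bees Research in Dunedin, New Zealand, and were kept in hives at several sites around that city. Nothing in the sources says that the pools of a group came from separate colonies, so the p-values below measure only the spread between these pools.

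In a honeybee colony the queen and her brood keep the ovaries of the workers small and without eggs, and when the queen is lost some workers activate their ovaries and lay unfertilised eggs. An active insect ovary is filled with growing germline, that is nurse cells and oocytes, while an inactive ovary holds relatively more somatic tissue such as muscle sheath and tracheae. Genes with very long introns take long to transcribe, and in insects many of them encode adhesion molecules, guidance receptors, ion channels and developmental transcription factors, whose introns often hold regulatory DNA.

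Levels are given in RPKM as deposited, the reads of an entry scaled by its length and by the size of the library, so that levels can be compared between genes. The relative depth of the libraries, as read from steps in the low values, ran from 94.7% to 100% of the deepest library, and the absolute depth is unknown. Summed RPKM ran from 330953 to 411992 per library and was highest in the queen-right workers. The label was checked against lists of marker genes, none of them long genes except where named. The 6 germline markers found summed to 1145.1 to 1221.4 RPKM in queen-right workers, 2351.2 to 2735.4 in queen-less workers and 3016.6 to 3121.4 in queens. Of these 6, mael and vas rose in queen-less workers, orb fell (963.01 and 1058.25 to 622.56 and 523.02 RPKM) and egl, nanos and spn-E did not pass the threshold, so that the higher sums come from mael and vas alone. The 9 muscle markers found summed to 2958.5 to 3647.6 RPKM in queen-right workers, 255.4 to 279.8 in queen-less workers and 94.1 to 118.6 in queens, the 6 fat body markers to 1237.9 to 1578.7, 39.3 to 49.8 and 12.9 to 35.6, and the 5 neuronal markers that are not long genes to 181.3 to 191.5, 67.7 to 84.8 and 50.96 to 61.2. In queen-less workers 8 of the 9 muscle markers, all 6 fat body markers and 2 of the 5 neuronal markers fell. The neuronal sum was mostly that of Appl, at 118.31 and 114.91 against 23.44 and 21.3 RPKM, and Csp, Para and Syt1 did not pass. None of the markers found was at 0 in any library. Fewer cells of a type and less RNA per cell cannot be told apart in whole ovaries, here or in any result below, and the part these tissues had in the long-gene results was not tested.

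By the median, though not by their share of the summed RPKM, long genes were at a level close to that of other genes. Their median mean level over the 6 libraries was 10.6 RPKM, against 11.6 RPKM for the other 10929 entries. Together they took 1.28% and 1.11% of the summed RPKM in the queen-right workers, 1.30% and 1.23% in the queen-less workers, and 1.13% and 1.11% in the queens. These shares were below the 2.15% of entries that are long genes, so their average level was below that of the whole table. They were at or above 1 RPKM in at least 2 libraries, the minimum set for testing, in 210 of 240 cases (87.5%), against 78.4% of the other entries. Another 15 long genes (6.25%) were listed at 0 in all 6 libraries, against 11.9% of the other entries. Among the 240, 3 had a mean of 100 RPKM or more. The highest was by with 154.7 RPKM, followed by LOC100577879 with 111.4 RPKM, LOC550870 with 106.7 RPKM, LOC411557 with 96.1 RPKM and gro with 91.8 RPKM.

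The 30 long genes below the minimum included receptors and ligands best known from nervous tissue and from patterning. Dop3, a dopamine receptor, was listed at 0.68 and 1.00 RPKM in the queen-right workers and at 0 in the other 4 libraries. The nicotinic acetylcholine receptor subunit nAChRa6 did not exceed 0.91 RPKM in any library, the metabotropic glutamate receptor Glurb did not exceed 0.11 RPKM and Wnt7, a Wnt ligand, did not exceed 0.41 RPKM. The transcription factor gene ss, which in Drosophila specifies antennal identity, was listed at 1.17 and 0.97 RPKM in queen-right workers, 0.22 and 0.60 RPKM in queen-less workers and 0.18 and 0.27 RPKM in queens. The pools disagreed for LOC726039, which was at 1.01, 0.65 and 0.68 RPKM in the first pool of the queen-right workers, queen-less workers and queens and at 0 in every second pool. No differences were tested for these 30.

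Of the 5 longest entries, the longest rose, another was listed at 0 and the remaining 3 differed among themselves. LOC725329 spanned 904195 bp on scaffold NW_003378077 from 59920 to 964114, and held 4 other entries within its span. It stood at 3.16 and 4.93 RPKM in queen-right workers, 25.42 and 21.56 RPKM in queen-less workers and 24.41 and 24.97 RPKM in queens. The groups with active ovaries did not overlap with the queen-right workers, and the log2 fold change was 2.49 ± 0.19 (SE, n = 2 pools a group) in queen-less workers and 2.57 ± 0.19 in queens, with adjusted p of 2.8e-05 and 1.8e-05. LOC410353, with a span of 556352 bp, fell from 9.13 and 5.22 RPKM in queen-right workers to 0.58 and 0.81 RPKM in queen-less workers, and was listed at 0.33 and 0 RPKM in queens. LOC724292, with a span of 511080 bp and 7 entries within it, was listed at 0 throughout. LOC409780, with a span of 458768 bp, rose moderately in queen-less workers, from 69.95 and 46.59 to 83.82 and 80.6 RPKM (log2 fold change 0.71 ± 0.20, adjusted p = 0.014). LOC726410, with a span of 441156 bp, fell from 7.73 and 7.18 to 3.84 and 2.55 RPKM (log2 fold change −0.84 ± 0.23, adjusted p = 0.014). The calls of LOC409780 and LOC726410 lay near the threshold. Without the first queen-less pool the adjusted p of LOC409780 was 0.0654, and without the second it was 0.0583. That of LOC726410 was 0.0671 without the first queen-right pool and 0.0847 without the second queen-less pool.

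The comparison of queen-less with queen-right workers asks what changes as the worker ovary becomes active. Of the 210 long genes tested 66 (31.4%) rose, 72 (34.3%) fell and 72 did not pass the threshold, an adjusted p of 0.05 in limma over all 8778 entries tested. Over all entries tested 67.6% were called, 30.6% that rose and 37.0% that fell, so that long genes were called in either direction at about the rate of the whole table. Their median log2 fold change was −0.09, against −0.13 over all entries tested, and the values ranged from −3.28 to 3.73. This median was 0.01 without the first queen-right pool, −0.0049 without the second queen-less pool, −0.17 without the first queen-less pool and −0.15 without the second queen-right pool, so its sign was not settled. Of the 210 long genes tested, 42 were called and rose and 43 were called and fell by at least 1 on the log2 scale. Of all 8778 entries tested, 1434 rose and 1867 fell by that much. Fold changes are on the scale of log2(RPKM + 1), which understates those of low genes. They were taken after scaling by a factor per library, whereas the RPKM printed are unscaled. This factor was 0.90 and 0.86 for the queen-right pools and 0.99 to 1.01 for the other libraries. A gene of equal RPKM in both groups therefore has a positive log2 fold change against queen-right workers.

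**Figure D1:**
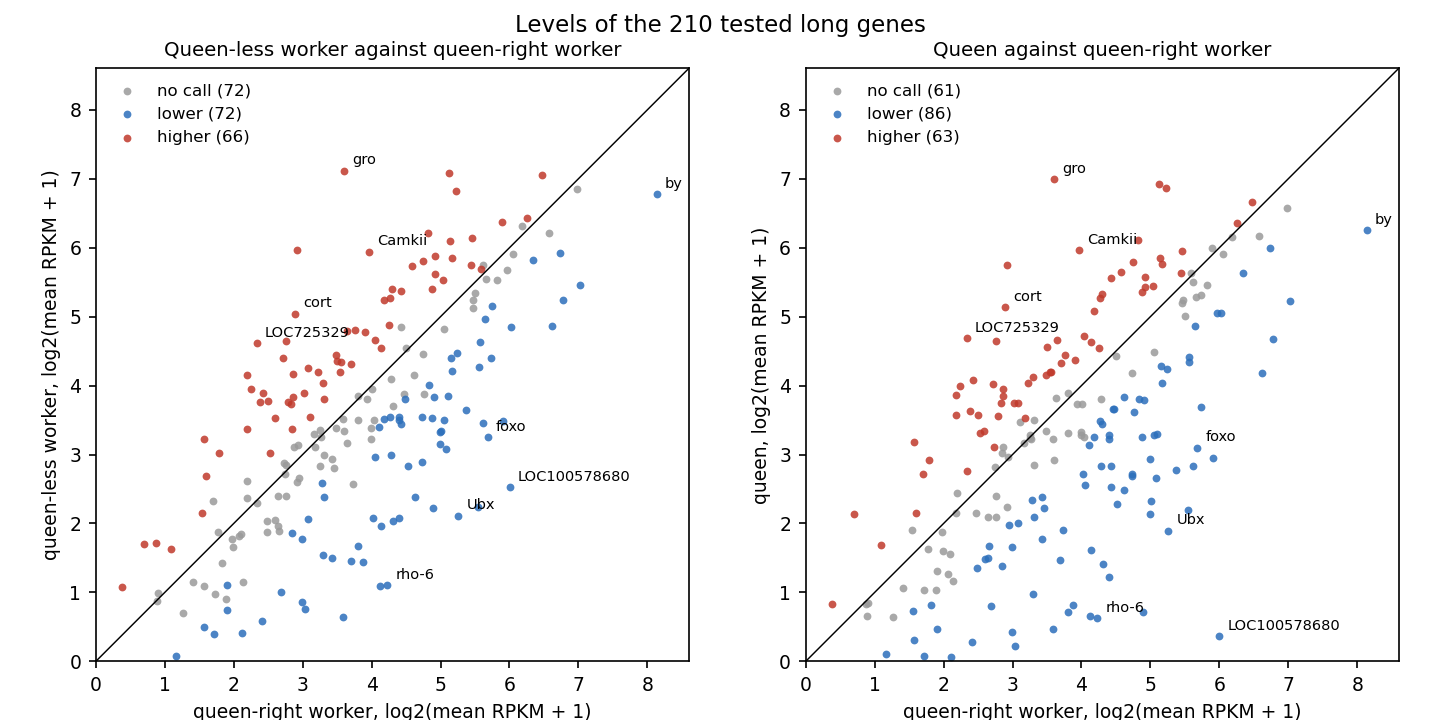
Mean level of each of the 210 tested long genes, in log2(mean RPKM + 1), in queen-right workers (x axis) against queen-less workers (left) and queens (right); colours give the limma call and the diagonal marks equal levels. In queen-less workers 66 long genes rose and 72 fell; in queens 63 rose and 86 fell, with gro farthest above and LOC100578680 farthest below the diagonal.

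The rise was largest for gro, the gene of the co-repressor Groucho, which in Drosophila acts with many DNA-binding repressors of the Notch and other pathways. It lies on scaffold NW_003378075 from 1652134 to 1771488, with no other entry within its span. It was at 13.4 and 8.86 RPKM in queen-right workers, 141.83 and 133.89 RPKM in queen-less workers and 124.04 and 128.55 RPKM in queens. All 4 libraries of active ovaries were thus far above the queen-right workers, with a 12.4-fold higher mean RPKM in queen-less workers and a log2 fold change of 3.73 ± 0.19 (adjusted p = 6.4e-06). The gene with the next largest rise, LOC410888, was at 10.04 and 3.03 RPKM in queen-right workers and at 68.63 and 54.84 RPKM in queen-less workers (log2 fold change 3.42 ± 0.42).

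Among the other large rises was cort, the gene of Cortex, an activator of the anaphase-promoting complex that in Drosophila acts in female meiosis. It spans 211539 bp on scaffold NW_003377856, from 377 to 211915, and was at 6.78 and 6.02 RPKM in queen-right workers, 31.46 and 32.45 RPKM in queen-less workers and 29.35 and 38.93 RPKM in queens. The log2 fold change in queen-less workers was 2.35 ± 0.17 (adjusted p = 2.3e-05). Camkii, the calcium/calmodulin-dependent kinase II known for its part in synaptic plasticity, rose from 16.02 and 13.17 to 56.04 and 64.96 RPKM (log2 fold change 2.17 ± 0.16). AChE-2, a gene of an acetylcholinesterase, the enzyme that degrades acetylcholine, rose from 7.56 and 4.01 to 25.57 and 22.78 RPKM (log2 fold change 2.13 ± 0.26). The 10 largest rises were completed by LOC725329, LOC411557, LOC100578236, LOC100578036 and LOC411054, with log2 fold changes from 1.91 to 2.49. For LOC100578036 the queen-right pools disagreed, at 3.57 and 0.39 RPKM, and without the second queen-less pool its adjusted p was 0.0607.

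The fall was largest for LOC100578680, which spans 213441 bp on scaffold NW_003378188 from 96871 to 310311. It was at 67.72 and 58.39 RPKM in queen-right workers, 5.04 and 4.5 RPKM in queen-less workers and 0.4 and 0.18 RPKM in queens. The 3 groups were apart from each other, and the log2 fold change was −3.28 ± 0.20 in queen-less workers (adjusted p = 1.1e-05) and −5.44 ± 0.20 in queens (adjusted p = 1.4e-06). LOC724518 followed with a fall from 40.45 and 50.99 to 4.12 and 3.33 RPKM (log2 fold change −3.11 ± 0.21).

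The next was Ubx, the Hox gene Ultrabithorax, which in insects sets the identity of posterior thoracic and anterior abdominal segments. It lies on scaffold NW_003377938 from 728635 to 835414 and was at 34.99 and 39.36 RPKM in queen-right workers, 3.61 and 3.05 RPKM in queen-less workers and 2.62 and 2.83 RPKM in queens. The log2 fold change in queen-less workers was −2.95 ± 0.18 (adjusted p = 1.1e-05). The rhomboid family gene rho-6 fell from 17.24 and 18.2 to 1.31 and 0.99 RPKM (log2 fold change −2.93 ± 0.20). Ci, the Gli family transcription factor of Hedgehog signalling, fell from 7.97 and 13.97 to 0.62 and 0.52 RPKM (log2 fold change −2.69 ± 0.27). The forkhead transcription factor gene foxo, which in Drosophila is held in check by insulin signalling, fell from 51.11 and 49.6 to 8.44 and 8.67 RPKM (log2 fold change −2.23 ± 0.14), with the pools of each group nearly equal. IGFn3-14, named for its immunoglobulin and fibronectin domains, fell by 2.24 ± 0.21 on the log2 scale, and LOC411212, LOC100577932 and LOC413242 completed the 10 largest falls with log2 fold changes from −2.84 to −2.26.

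**Figure D2:**
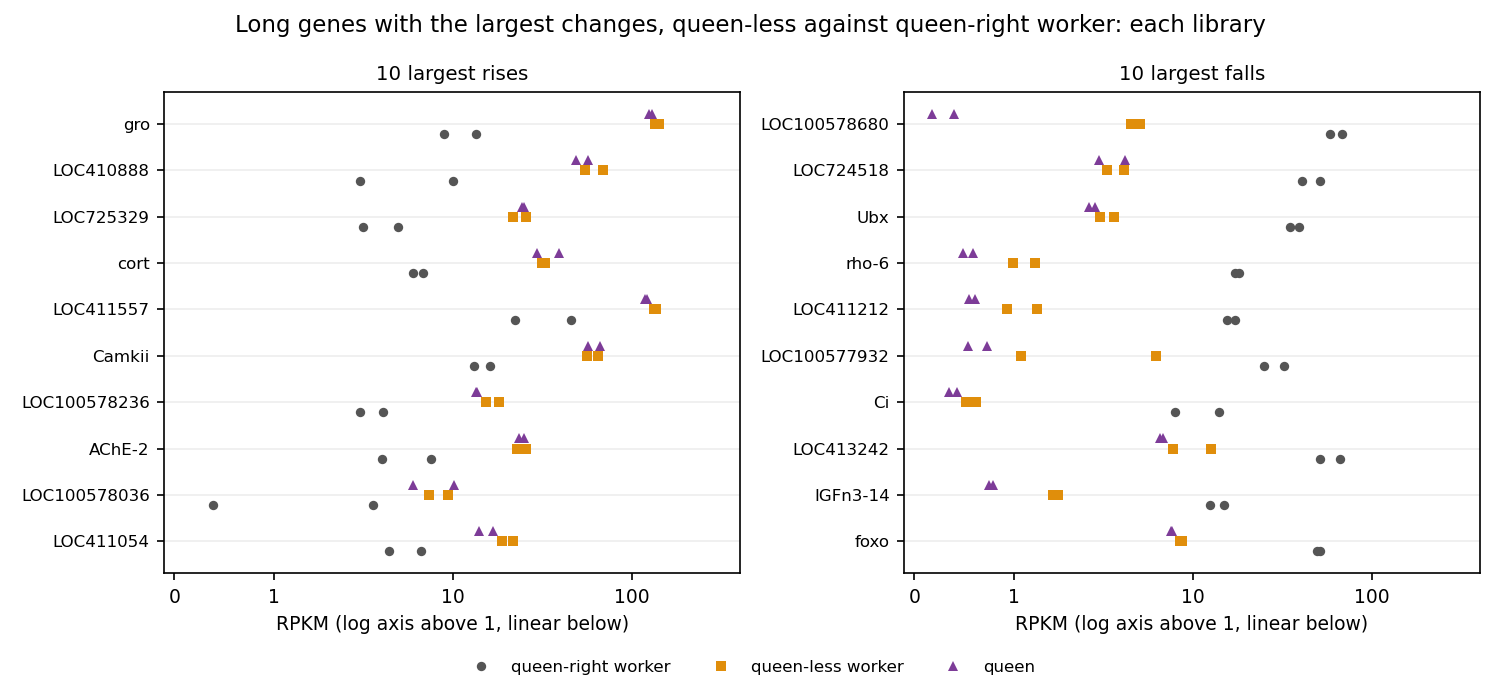
RPKM of the 10 long genes with the largest rise (left) and the 10 with the largest fall (right) between queen-right and queen-less workers; each symbol is a library, and the axis is logarithmic above 1 RPKM and linear below. The queen libraries (triangles) mostly lie near or beyond the queen-less workers (squares), and for LOC100578680 they are at 0.4 and 0.18 RPKM. Those of gro, LOC411557 and LOC100578236 lie between the worker groups, nearer to the queen-less workers.

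The 75 long genes with a symbol were put into 6 classes by what their symbol is known for. Across them 24 of the 70 tested rose and 24 fell in queen-less workers (34.3% each), against 30.6% and 37.0% of all entries tested. Each class held genes that moved in both directions, and classes of this size are described here without a test.

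Among adhesion and guidance molecules 7 of 21 rose (33.3%) and 8 fell (38.1%), against 30.6% and 37.0% of all entries tested. Their median log2 fold change was −0.42, against −0.13. The long gene with the highest level, by, encodes Blistery, a tensin of integrin adhesions, and lies on scaffold NW_003377962 from 864355 to 1011451. It fell in both comparisons, at 319.59 and 241.11 RPKM in queen-right workers, 113.23 and 103.6 RPKM in queen-less workers and 81.83 and 68.64 RPKM in queens (log2 fold change −1.16 ± 0.17 and −1.68 ± 0.17). The integrin alpha subunit gene if (Inflated), needed for muscle attachment in Drosophila, fell from 32.39 and 29.07 to 8.57 and 7.23 RPKM in queen-less workers (log2 fold change −1.64 ± 0.17). In the class of cytoskeletal and matrix genes zormin, which encodes a titin-related protein of the Drosophila sarcomere, fell from 28.53 and 22.61 to 9.26 and 12.08 RPKM (log2 fold change −0.996 ± 0.22). The muscle markers named above, none of which is a long gene, fell over the same libraries in 8 of 9 cases, and their part in these falls was not tested.

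In several families members differed in direction, though not in all. Both fasciclin genes fell, Fas3 from 96.83 and 121.33 to 40.94 and 32.55 RPKM (log2 fold change −1.35 ± 0.14) and Fas1 from 9.27 and 8.31 to 2.23 and 1.6 RPKM (log2 fold change −1.56 ± 0.27). Fasciclins are cell surface proteins first described on insect axon bundles, and in the Drosophila ovary Fas3 is also a marker of follicle cells. Of the 4 IGFn3 genes, IGFn3-14 fell, IGFn3-4 rose from 3.92 and 3.56 to 16.86 and 12.18 RPKM (log2 fold change 1.89 ± 0.20), and IGFn3-6 and IGFn3-9 did not pass the threshold (log2 fold changes 0.12 ± 0.17 and 0.31 ± 0.21). Neurexin and neuroligins, which bind to each other across synapses, were also split. Nrx-1 rose from 2.74 and 2.19 to 8.29 and 6.0 RPKM (log2 fold change 1.42 ± 0.23), while NLG-3 fell from 8.27 and 9.18 to 4.8 and 5.23 RPKM (log2 fold change −0.50 ± 0.18, adjusted p = 0.041) and NLG-4 did not pass (log2 fold change −0.49 ± 0.23, adjusted p = 0.097). NLG-3 and NLG-4 lie on the same scaffold. The span of Nrx-1 holds LOC100578903, which went from 104.2 and 8.45 to 2713.55 and 3429.6 RPKM. That of NLG-4 holds LOC100578400, which rose by 2.43 on the log2 scale. Whether reads were shared between these entries and their hosts was not tested. CadN, the gene of N-cadherin, fell from 9.93 and 7.91 to 4.52 and 3.95 RPKM, with a log2 fold change of −0.72 ± 0.21. Its adjusted p was 0.098 without the first queen-right pool and 0.0793 without the second queen-less pool, and that of NLG-3 was 0.0616 to 0.144 with any single library left out.

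Among the guidance ligands and receptors the semaphorins differed. Sema-1 rose from 13.02 and 9.94 to 26.27 and 27.3 RPKM (log2 fold change 1.36 ± 0.17), whereas Sema-2a, a secreted semaphorin, fell from 23.95 and 18.65 to 13.63 and 12.2 RPKM (log2 fold change −0.48 ± 0.18, adjusted p = 0.042). The receptor gene plexA, of the plexin that binds the membrane semaphorin in Drosophila, rose from 19.1 and 17.04 to 29.64 and 26.99 RPKM (log2 fold change 0.81 ± 0.13). The gene of Slit, sli, the ligand of Robo receptors, rose from 15.88 and 11.97 to 26.21 and 26.62 RPKM (log2 fold change 1.08 ± 0.17), and Drl2, of the Derailed family of Wnt receptors, rose from 6.47 and 6.08 to 16.6 and 17.41 RPKM (log2 fold change 1.50 ± 0.16). For all 5 genes the pools of the queen-less workers were closer to each other than to either queen-right pool. The call of Sema-2a was lost with any single library left out other than the second queen-right pool, with adjusted p from 0.064 to 0.216.

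**Figure D3:**
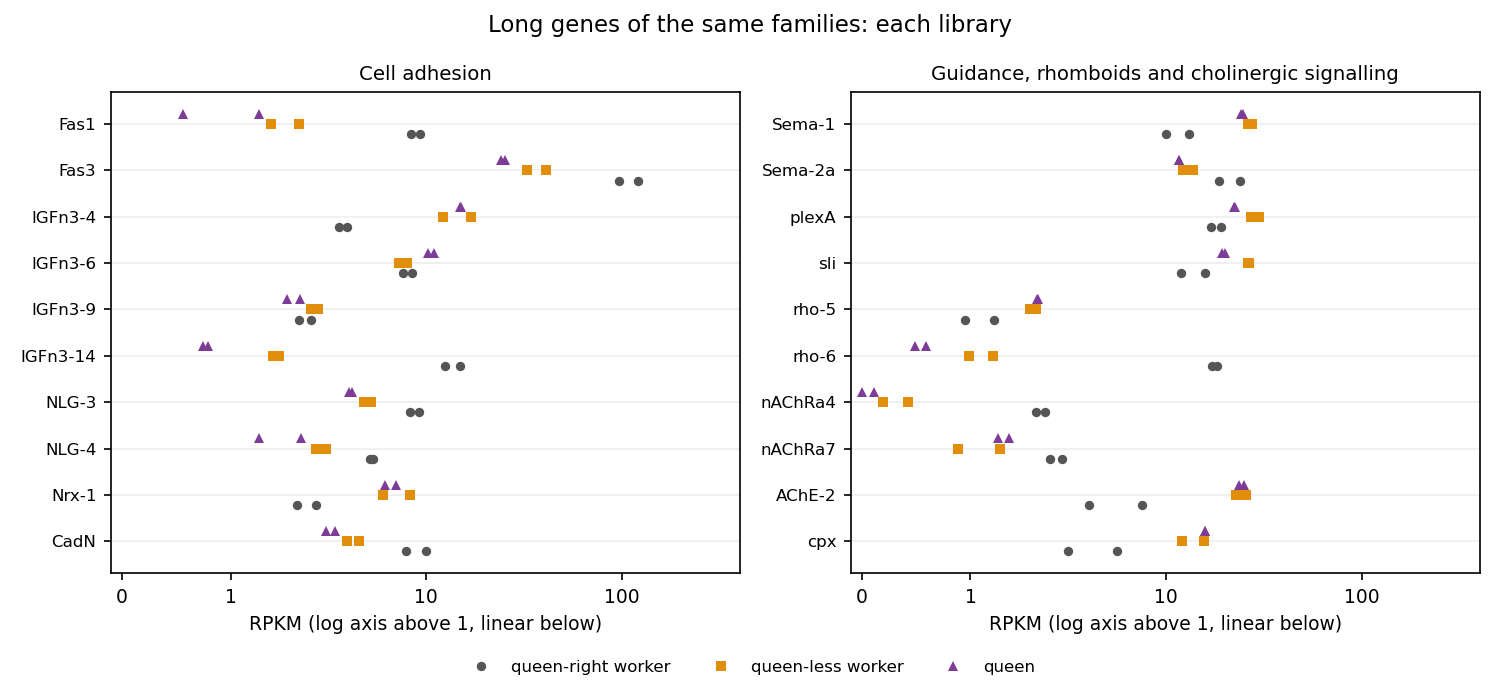
RPKM of long genes of shared families in each library, with adhesion molecules on the left and guidance, rhomboid and cholinergic genes on the right; each symbol is a library, and the axis is logarithmic above 1 RPKM and linear below. Members of a family lie on opposite sides: rho-6 fell and rho-5 rose, Sema-2a fell and Sema-1 rose, IGFn3-14 fell and IGFn3-4 rose. The calls of Sema-2a, rho-5, nAChRa7 and NLG-3 lay near the threshold. That of Sema-2a was lost in limma without a filter (adjusted p = 0.0512), and that of rho-5 with RPKM as deposited (adjusted p = 0.0524).

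Of the 9 genes of neurotransmission 6 were tested, of which 3 rose and 2 fell. The rises were those of AChE-2, of cpx, the gene of complexin, a protein that clamps synaptic vesicle fusion, and of SK, the gene of a calcium-activated potassium channel. The value of cpx went from 5.64 and 3.15 to 15.61 and 12.01 RPKM (log2 fold change 1.68 ± 0.26), and that of SK from 6.62 and 7.6 to 16.08 and 11.61 RPKM (log2 fold change 1.05 ± 0.19). The receptor subunits nAChRa4 and nAChRa7 fell, from 2.4 and 2.16 to 0.2 and 0.43 RPKM and from 2.92 and 2.54 to 0.89 and 1.41 RPKM (log2 fold changes −1.13 ± 0.23 and −0.61 ± 0.23). The call of nAChRa7 (adjusted p = 0.047) was lost with any single library left out other than the second queen-less pool, with adjusted p from 0.0593 to 0.216. Complexin was also on the list of neuronal markers, and it rose while 2 of the other 5 neuronal markers fell and none of them rose.

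Of the 15 transcription-related genes tested 4 rose (26.7%) and 5 fell (33.3%), against 30.6% and 37.0% of all entries tested. Besides gro, the rises included E74, an ETS factor gene that ecdysone induces in Drosophila, from 24.08 and 21.72 to 51.86 and 52.59 RPKM (log2 fold change 1.35 ± 0.12). The zinc finger gene sqz rose from 13.09 and 7.35 to 20.57 and 20.74 RPKM (log2 fold change 1.19 ± 0.26). The bHLH gene crp rose by the smallest margin, from 9.46 and 5.81 to 10.46 and 10.85 RPKM (log2 fold change 0.66 ± 0.24, adjusted p = 0.041), and its adjusted p was 0.0592 to 0.2 with any library left out other than the first queen-right pool. Falls beside those of Ubx, Ci and foxo included pnt, the ETS factor of EGF receptor signalling in Drosophila, from 34.33 and 32.37 to 14.95 and 11.75 RPKM (log2 fold change −1.08 ± 0.19). Several regulators were close to level, among them Rpb8, an RNA polymerase subunit gene at 45.48 and 43.04 against 41.95 and 37.56 RPKM, and Su(var)3-3, a histone demethylase gene at 10.17 and 10.15 against 9.76 and 9.12 RPKM. After scaling by the library factors the log2 fold change was 0.04 ± 0.12 for Rpb8 and 0.10 ± 0.16 for Su(var)3-3. The span of Rpb8 holds 6 other entries. For the POU factor gene pdm3 the pools disagreed within both worker groups, at 29.26 and 11.8 RPKM in queen-right and 37.11 and 18.3 RPKM in queen-less workers, and no difference between workers was called (log2 fold change 0.65 ± 0.44). Without the first queen-right pool it was called, at 1.31 with an adjusted p of 0.0257, and without the second the log2 fold change was −0.0008.

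Of the 9 genes of kinases and second messengers 2 rose (22.2%) and 4 fell (44.4%), against 30.6% and 37.0% of all entries tested. The rises were Camkii and nmo, the gene of the Nemo kinase that in Drosophila acts in planar polarity and Wnt signalling, which went from 43.34 and 29.49 to 105.22 and 118.25 RPKM (log2 fold change 1.81 ± 0.19). The genes that fell encode regulators of small GTPases and of calcium signals. Rapgap1 fell from 38.52 and 30.72 to 20.69 and 19.46 RPKM, StARD13 from 41.32 and 28.72 to 16.15 and 18.94 RPKM, igl from 46.7 and 51.45 to 29.95 and 30.72 RPKM and Pde1c from 5.33 and 7.06 to 3.05 and 2.21 RPKM. Their log2 fold changes were −0.56 ± 0.15, −0.75 ± 0.25, −0.48 ± 0.11 and −0.79 ± 0.23. Of these calls that of igl held with each library left out. The calls of the others were lost without the second queen-less pool (adjusted p of 0.0678 for Rapgap1, 0.0595 for StARD13 and 0.0991 for Pde1c), those of Rapgap1 and StARD13 also without the first queen-right pool (0.0556 and 0.162), that of StARD13 without the first queen-less pool (0.137) and that of Pde1c without the second queen-right pool (0.0867). The cAMP phosphodiesterase gene dnc, the Dunce gene of learning studies in Drosophila, was at 77.53 and 53.27 RPKM in queen-right workers and at 58.41 and 60.12 RPKM in queen-less workers, with overlapping groups (log2 fold change 0.08 ± 0.18). Without the first queen-right pool it was called higher, at 0.38 with an adjusted p of 0.0131, and without the second its sign turned, to −0.22.

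Of the 8 morphogen and protease signalling genes tested 2 rose, 2 fell and 4 did not pass. The rhomboid genes went apart: rho-6, described above, fell, and rho-5 rose from 0.95 and 1.32 to 2.17 and 2.01 RPKM (log2 fold change 0.73 ± 0.21, adjusted p = 0.015). The genes of a heparan sulfate enzyme and of a proteoglycan also went apart. The heparan sulfate sulfotransferase gene Hs3st-A rose from 4.89 and 5.17 to 11.37 and 9.68 RPKM (log2 fold change 1.12 ± 0.18), and the glypican gene dlp fell from 4.92 and 8.93 to 2.26 and 2.58 RPKM (log2 fold change −0.97 ± 0.28). The adjusted p of rho-5 was 0.0565 without the first queen-right pool, 0.0607 without the first and 0.0514 without the second queen-less pool, and that of dlp was 0.0898 without the second queen-right and 0.075 without the first queen-less pool. Neither the Notch receptor gene nor kuz passed the threshold, unlike gro above. The receptor gene N was at 5.88 and 7.31 RPKM in queen-right and 4.95 and 5.18 RPKM in queen-less workers (log2 fold change −0.13 ± 0.19). The gene kuz, of a protease that cleaves the Notch receptor in Drosophila, was at 15.46 and 14.79 against 15.82 and 13.07 RPKM (log2 fold change 0.12 ± 0.16). The receptor tyrosine kinase gene Ror, whose product binds Wnt ligands in vertebrates, was at 11.43 and 17.25 against 13.51 and 12.43 RPKM (log2 fold change 0.08 ± 0.22).

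In the remaining class of cytoskeleton, matrix and other genes 6 of 11 rose (54.5%) and 3 fell (27.3%), against 30.6% and 37.0% of all entries tested. Their median log2 fold change was 0.71, against −0.13, in a class too small to be read as a trend. Nedd9, the gene of a scaffold protein of integrin and kinase signalling, rose from 26.39 and 27.97 to 75.35 and 71.63 RPKM (log2 fold change 1.59 ± 0.10). The motor gene kinesin-3A rose from 37.89 and 32.12 to 52.17 and 61.62 RPKM (log2 fold change 0.88 ± 0.14). PH4alphaEFB, which encodes an enzyme that hydroxylates collagen prolines, fell from 28.98 and 35.62 to 9.94 and 10.71 RPKM (log2 fold change −1.36 ± 0.15). The actin-binding gene Shroom fell less, from 53.54 and 51.36 to 33.87 and 35.72 RPKM (log2 fold change −0.39 ± 0.11), and its adjusted p was 0.081 without the first queen-less pool.

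The comparison of queens with queen-right workers uses the same queen-right libraries, so it is no independent check of the comparison above. In queens 63 long genes (30.0%) rose, 86 (41.0%) fell and 61 did not pass, against 71.8% called over all entries tested, 31.3% that rose and 40.6% that fell. The median log2 fold change of the long genes was −0.28, against −0.19 over all entries tested. The largest rises were again those of gro (log2 fold change 3.62 ± 0.19), LOC410888 (3.20 ± 0.42), LOC725329 (2.57 ± 0.19), cort (2.44 ± 0.17) and Camkii (2.20 ± 0.16). The largest falls were those of LOC100578680 (−5.44 ± 0.20), LOC100577932 (−3.98 ± 0.50), rho-6 (−3.40 ± 0.20), LOC411212 (−3.26 ± 0.21) and Ubx (−3.16 ± 0.18). Only genes whose queen and queen-right libraries did not overlap could be named here, so the separation of these groups was set by that choice.

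Some long genes were called in queens and not in queen-less workers against the queen-right workers. The homeobox gene ct, a marker of the follicle epithelium in Drosophila, was at 6.25 and 7.12 RPKM in queen-right workers, 5.88 and 4.72 RPKM in queen-less workers and 2.93 and 2.98 RPKM in queens. Its log2 fold change was −0.76 ± 0.20 in queens (adjusted p = 0.0092, or 0.108 with a trend over span removed) and −0.10 ± 0.20 in queen-less workers, and the difference between queens and queen-less workers did not pass (log2 fold change −0.66 ± 0.20, adjusted p = 0.18). For pdm3 the queens were at 4.57 and 4.92 RPKM, below all 4 worker libraries (log2 fold change −1.58 ± 0.44 against queen-right workers, adjusted p = 0.013). Without the first queen-right pool the adjusted p of this call was 0.0746. The difference from queen-less workers did not pass (log2 fold change −2.23 ± 0.44, adjusted p = 0.066), though it did without either queen-right pool (adjusted p of 0.0487 and 0.0474).

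Queens and queen-less workers, both with active ovaries, differed in few genes. Of the 210 long genes 3 were lower in queens and none was higher in limma, against 1.48% called over all entries tested, 1.4% lower and 0.0797% higher. At an unadjusted p under 0.05, 29 (13.8%) were lower and 4 (1.9%) higher, against 12.3% lower and 3.96% higher of all entries tested. LOC100578680 passed at 5.04 and 4.5 RPKM in queen-less workers against 0.4 and 0.18 RPKM in queens (−2.16 ± 0.20 on the log2 scale, adjusted p = 0.0037). The integrin gene if was at 8.57 and 7.23 RPKM in queen-less workers and at 3.31 and 3.5 RPKM in queens (log2 fold change −1.003 ± 0.17, adjusted p = 0.044), and LOC411113 at 9.91 and 8.32 against 3.89 and 4.18 RPKM (log2 fold change −0.99 ± 0.18, adjusted p = 0.046). The calls of if and LOC411113 were lost with any single library left out, with adjusted p of 0.0726 to 0.25 for if and 0.0708 to 0.273 for LOC411113, while that of LOC100578680 held in each of these fits. Muscle markers, none of them long, were lower in queens than in queen-less workers in 6 of 9 cases, and their part in these 3 differences was not tested.

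Short of the threshold, the long genes leaned towards lower values in queens. The log2 fold change between queens and queen-less workers was below 0 in 161 of 210 long genes (76.7%), against 57.4% of all entries tested, and the median was −0.19, against −0.05. Leaving out any single library kept the median of the long genes between −0.22 and −0.15. By span, the median was −0.06 in the 2388 entries tested of 5 to 20 kb and −0.18 in the 648 of 20 to 50 kb. It was −0.15 in those of 50 to 100 kb, −0.17 in those of 100 to 200 kb and −0.24 in the 53 of 200 kb or more. Entries of 20 to 100 kb, which are not long genes, thus leaned about as much as those of 100 to 200 kb. Genes are not independent replicates, and no test was made of this lean.

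Beside the whole table, the calls were set against span. Between the worker groups 40.5% of the entries of 5 to 20 kb rose, more than the 32.5% of those of 100 to 200 kb and the 28.3% of those of 200 kb or more. Entries under 2 kb stood apart, with 15.4% that rose, 45.4% that fell and a median log2 fold change of −0.42. Among the 53 tested genes of 200 kb or more 15 rose and 22 fell in queen-less workers, with a median of −0.29, and 14 rose and 27 fell in queens, with a median of −0.62. Of the 157 tested genes of 100 to 200 kb 49 rose and 59 fell in queens. Shorter entries of 20 to 50 kb also fell more often than they rose in queens (47.2% against 29.6%, median −0.37), as did all entries tested, and no difference between span classes was tested.

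**Figure D4:**
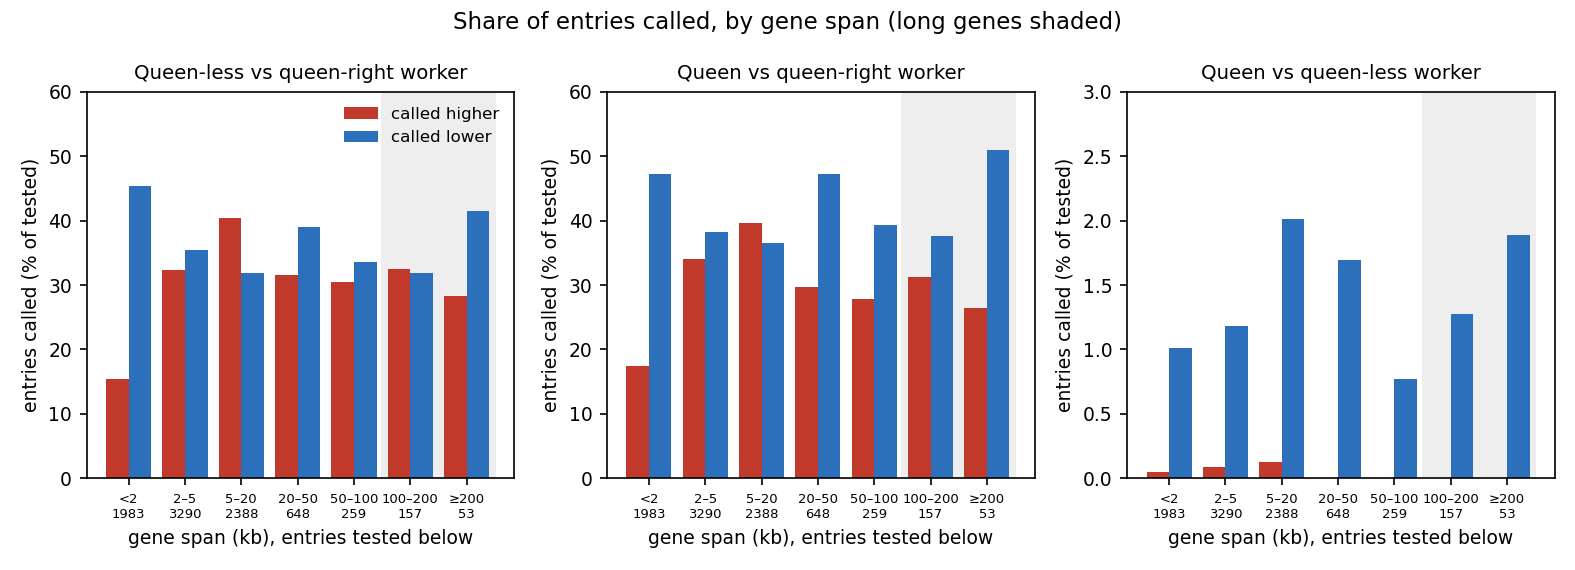
Share of tested entries called higher (red) and lower (blue) by limma in each comparison, by gene span in kb with the number of entries tested under each class; long genes are shaded, and the right panel has its own scale. In queens against queen-right workers 50.9% of the entries of 200 kb or more fell, against 37.6% of those of 100 to 200 kb and 47.2% of those of 20 to 50 kb.

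Calls also depended on level, so long genes were set beside other genes of similar mean RPKM, in 5 ranges that each held 42 tested long genes. Weighted to the same ranges, 25.8% of the 8227 other genes rose and 39.0% fell in queen-less workers, with a median log2 fold change of −0.22. The median of the long genes lay above this by 0.13. Their own median had a spread between pools of 0.15, and no spread was computed for the difference itself. The difference was 0.22 without the first queen-right pool, 0.23 without the second queen-less pool and 0.0485 without the first queen-less pool. With a pseudocount of 0.1 it was 0.223, so its size depended on single libraries and on the pseudocount. In queens the same difference was 0.0248, and it was 0.0701 without the first queen-right pool, −0.0083 without the second and 0.0537 without the second queen pool, with 26.6% of the other genes rising and 42.8% falling. Between queens and queen-less workers the long genes lay below others of their level by −0.11, and by −0.0757 without the second queen pool. Here the spread between pools of their own median was 0.08, and again none was computed for the difference.

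Within the ranges the pattern was not uniform. In the lowest range, 0.457 to 4.355 RPKM, 14.3% of the long genes rose and 33.3% fell in queen-less workers, against 9.04% and 48.3% of the other genes. In the range from 15.244 to 31.561 RPKM the order turned: 45.2% of the long genes fell, against 32.9% of the other genes, and the medians were −0.34 and 0.00. Above 31.561 RPKM long genes and others were alike in their counts, with 52.4% and 51.3% rising and 21.4% and 25.9% falling. In both sets the share that rose was larger in the higher ranges.

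**Figure D5:**
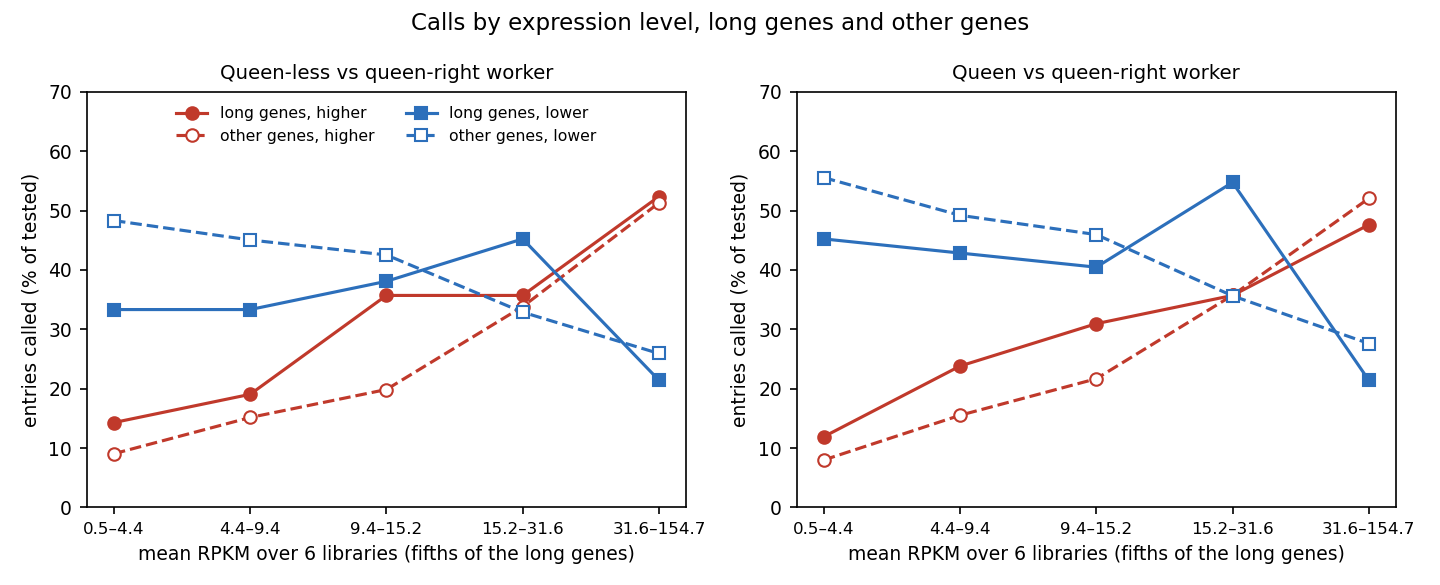
Share of tested entries called higher (red) or lower (blue) in 5 ranges of mean RPKM, for long genes (filled symbols, 42 per range) and all other genes of the range (open symbols), in queen-less workers (left) and queens (right) against queen-right workers. In the range 15.2 to 31.6 RPKM the long genes fell in 45.2% of cases in queen-less workers and 54.8% in queens, and the other genes in 32.9% and 35.6%.

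Long genes commonly enclosed other genes. A total of 165 entries lay wholly within the span of 90 long genes, with at most 22 in the same gene, LOC727375. Some other entry was overlapped by 102 long genes (42.5%), against 32.4% of the remaining entries. Span, nesting and overlap were read from the same coordinates, and a longer span takes in more entries. This contrast therefore follows at least in part from the span limit. Nothing in the sources says whether reads were counted by strand, so reads of overlapping entries cannot be told apart. The calls in queen-less workers differed little with overlap. Among long genes that overlap no other entry 38 of 121 rose (31.4%) and 42 fell (34.7%). Among those that do 28 of 89 rose (31.5%) and 30 fell (33.7%). Over all entries tested 30.6% rose and 37.0% fell.

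In 42 pairs of a long gene and an entry within it both were tested, and in 10 pairs both were called between the worker groups. In 4 of the 10 both moved the same way and in 6 they moved in opposite directions. The most abundant was LOC100578903, of 19559 bp, within Nrx-1. It was at 104.2 and 8.45 RPKM in queen-right workers, 2713.55 and 3429.6 RPKM in queen-less workers and 3420.79 and 3880.81 RPKM in queens (log2 fold change 6.79 ± 0.93, adjusted p = 0.00047), while Nrx-1 stayed below 9 RPKM in all libraries. The queen-right pools of this entry disagreed by a wide margin, though both were far below the other libraries.

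Y-x2, of 2099 bp, lay within LOC410353 and fell with it, from 18.88 and 38.45 to 0.0 and 0.11 RPKM. LOC100576404, within PH4alphaEFB, rose from 2.09 and 1.94 to 14.81 and 17.3 RPKM while its host fell. AGLU2, within Pde1c, rose from 1.04 and 0.92 to 7.6 and 19.38 RPKM while its host fell, and LOC100577998 rose within Fas1, which fell. In the opposite sense LOC100576697 fell within plexA, which rose, from 10.86 and 14.03 to 3.75 and 3.42 RPKM. These entries within long genes are not long genes themselves and are given to show that entries sharing a span did not always share a direction.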

How the data were processed

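Ovary RNA of 6 pools (3 groups of 2) was measured by RNA-seq. The authors deposited RPKM for each entry and library, and a normalized signal that equalled RPKM + 1 times a library factor, which was recovered from it. The aligner, the counting program, the strand setting and the genome build are not given in the sources used here. Coordinates are as deposited, on scaffolds; whether starts count from 0 was not settled, and this moves no entry across 100000 bp. The authors' p-values and group means and 12 further columns of values per sample were not used.

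Testing required 1 RPKM or more in 2 libraries or more, which 8778 of 11169 entries met. Values of log2(RPKM + 1), scaled by these factors, were fitted over the 6 libraries with limma 3.58.1 (R 4.3.3, variance trend), and p-values were adjusted by Benjamini-Hochberg over the entries tested, with a threshold of 0.05. The model was also run on simulated normal noise in which few entries were changed. That run gives no measure of the accuracy of the calls against queen-right workers, where most entries passed. Python 3.11.15, pandas 2.3.3, numpy 2.4.6 and matplotlib 3.10.9 were used for summaries and figures. An exact permutation test of 2 against 2 pools cannot go below p = 0.333 and was not run. Depth is known only relative to the deepest library, so no counting intervals are given.

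The members, lists and tests were chosen with earlier results of these data known. Named are the 10 largest rises and falls between workers, 5 each for queens against queen-right workers, every call between queens and queen-less workers, the 5 longest, the 5 highest, the 3 nearest the limit and the 3 highest of each class, in each case without overlap between the libraries of both groups where a call is the ground. Other long genes with a symbol, entries within long genes and LOC726039 were named after their values were seen. Classes were assigned by symbol after the values had been seen, because the reference table (Amel_HAv3.1, used for names only) gives no descriptions. A name that stands on more than 1 entry was counted and not named. Marker lists: 9 of 15 muscle, 6 of 7 fat body, 6 of 14 neuronal and 6 of 9 germline symbols were found. Alternatives tried were no filter, stricter filters, RPKM as deposited, median-of-ratios factors, a pseudocount of 0.1, removal of a trend with span, only the 4 libraries compared, a replicate block, leaving out each library, other span limits and a fold limit.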

Additional observations from a re-analysis of the deposited data

How the results depend on the processing

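Of 86 values of named genes, 73 were called, and 55 of these calls held in every alternative tried; 18 were lost in some alternative, none of these reversed, and the rest of the changes lay in genes without a call. With RPKM as deposited, the median log2 fold change over all entries tested moved from −0.13 to −0.32 in queen-less workers and from −0.19 to −0.39 in queens, and that of the long genes to −0.28 and −0.47. The long genes then rose in 60 and fell in 85 cases in queen-less workers, and rose in 54 and fell in 107 in queens. Over all 8778 entries tested 2204 then rose and 3881 fell in queen-less workers, and 2303 and 4158 in queens. Relative to these shifts, genes close to level changed sign: IGFn3-6 went to −0.0692, Ror to −0.11, Rpb8 to −0.15, Su(var)3-3 to −0.10, dnc to −0.12 and kuz to −0.0676, and NLG-4 was called lower (−0.68, adjusted p = 0.0302).

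A pseudocount of 0.1 moved the difference of the long genes from genes of similar level in queens to 0.16. With a trend over span removed, which takes out by construction what follows span, the median of the long genes became 0.0708 in queens against queen-right workers and 0.0369 in queens against queen-less workers, the differences from genes of similar level became 0.20 and 0.0478, and ct in queen-less workers went to 0.0252. With a limit of at least 1 on the log2 scale, 42 long genes rose and 43 fell in queen-less workers, and 33 and 53 in queens. Over all 8778 entries tested 1434 rose and 1867 fell at this limit, and 1559 and 2312 in queens. With a span of at least 50000 bp, 145 rose and 159 fell, and 135 and 188 in queens, and 5 were lower in queens than in queen-less workers. With at least 200000 bp, 15 rose and 22 fell (median −0.29), and 14 and 27 in queens (median −0.62, difference from genes of similar level −0.26), and 1 was lower in queens than in queen-less workers. Among long genes that overlap no other entry, an alternative added after seeing the data, 38 rose and 42 fell, and 34 and 52 in queens. These choices by span and overlap leave the shares over all entries tested at 30.6% rising and 37.0% falling, and at 31.3% and 40.6% in queens. The count of 3 long genes lower in queens than in queen-less workers became 1 without a filter, with the span trend removed and in a fit of the 4 libraries compared. Over all entries, 4085 rose and 3326 fell in queen-less workers without a filter, against 2686 and 3244 with it, and 4125 and 3741 in queens, against 2744 and 3560. Of all entries 123 were lower in queens than in queen-less workers, against 39 without a filter, 39 in a fit of the 4 libraries and 68 with a replicate block.

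With single libraries left out, long genes that rose in queen-less workers numbered 56 to 68 and those that fell 59 to 71, and in queens 51 to 67 and 73 to 86. Those lower in queens than in queen-less workers numbered 1 to 2. Among genes without a call, Ror ranged from −0.16 to 0.3246, Rpb8 from −0.0345 to 0.11, ct from −0.22 to 0.0238, dnc from −0.22 to 0.38 and pdm3 from −0.0008 to 1.31.

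The replicate numbers name pools only: same-numbered deviations correlated at −0.13 for the 2 worker groups, and those of the queens at −0.09 with queen-right and at 0.06 with queen-less pools. With a replicate block 66 long genes rose and 66 fell in queen-less workers, 63 and 86 in queens, and 1 was lower in queens than in queen-less workers. Over all 8778 entries tested the block gave 2594 that rose and 3110 that fell in queen-less workers, and 2659 and 3513 in queens. With the numbers of the queen-right pools crossed, chosen after seeing the data, 67 long genes rose and 74 fell in queen-less workers, against 2772 and 3324 of all entries tested. With 2 pools a group and an unknown absolute depth, small changes of genes near 1 RPKM cannot be told from counting error.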
